A study of Mus musculus with 12 samples.

Results

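β-catenin and H3K27ac ChIP-seq were compared across genes in wild-type control mouse forelimb buds. The 4 libraries used are the DMSO samples with a peak list, of 12 samples in the series, and they comprise 2 β-catenin and 2 H3K27ac replicates with 1 consensus list per antibody. All were wild-type Swiss Albino embryos that received DMSO at E10.5 and were dissected 6 h later, each library being made from pooled forelimb buds. No mutation or transgene was present, and the buds are a mixture of mesenchyme, ectoderm and other cells, so a peak cannot be assigned to a cell type. The chromatin for β-catenin went through an additional crosslinking step with DSG that the H3K27ac chromatin did not, and this difference cannot be told apart from the antibody.

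β-catenin is the transcriptional effector of canonical WNT signalling. It has no DNA-binding domain of its own and is brought to chromatin by TCF/LEF factors, which recognise a short sequence with the core (A/T)TCAAAG, and in limb buds it is known for roles in ectoderm, ridge and mesenchyme. H3K27ac is an acetyl mark on nucleosomes beside active promoters and enhancers. The antibodies therefore read different things, a co-activator at its binding site and a modification of the nucleosomes around it.

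Each row of a peak list is 1 summit with its fold enrichment, the ratio of the coverage to what macs2 expected there in the same library. The β-catenin lists held 20154 and 25770 summits in replicates 1 and 2 and 16193 in the consensus, on chromosomes 1 to 19, X and Y of mm10. The H3K27ac lists held 35218, 37886 and 31428. A gene was scored by summits less than 1 kb from any of its annotated TSSs, or within 50 kb of one, over 21938 protein-coding genes of GENCODE M21. The annotated TSSs include those of transcripts that start inside the gene. Each antibody was scored separately, so a gene with both can carry them at different TSSs. The β-catenin libraries were shallower, with 2.93 and 3.39 Gb of fragments against 5.03 and 5.39 Gb for H3K27ac, as solved from the fold enrichments and p-values of the rows. A summit that is not listed is therefore not shown to be absent, least of all for β-catenin. In the consensus, acetylation at the TSS was listed for 5 of 5 limb mesenchyme markers and for the forelimb gene Tbx5. It was listed for the hindlimb gene Tbx4 but not its 1 partner on that list. It was also listed for 1 of 4 ectoderm, 2 of 3 muscle precursor, 1 of 4 blood, 0 of 4 endothelial and 0 of 4 neural markers. Replicate 2 listed 2 of 4 ectoderm and 3 of 3 muscle precursor markers, and each replicate listed 1 of 4 endothelial markers.

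To show what lies under strong summits at annotated TSSs, the TCF/LEF core nearest to the β-catenin summit is printed. It is given for the 4 genes of highest β-catenin fold enrichment in each of 2 classes. They were taken from the named genes whose 200 bp window holds a core. Of the named genes considered, 15 of 28 with β-catenin only and 34 of 99 with both held one. The 29 bases are read from the GRCm38 reference on the strand where the core reads (A/T)TCAAAG, and the capitals mark the core. The first 4 genes had β-catenin without H3K27ac at the TSS in the consensus lists.
Sp5, chr2:70475001-70475029, minus strand: gctacccaatcATCAAAGaatagcggctc
Wnt6, chr1:74770939-74770967, minus strand: cacggggggagATCAAAGgcctcgtgggg
Tspan18, chr2:93228001-93228029, plus strand: gtgaaactgaaTTCAAAGgacagccttcc
Sdr42e1, chr8:117670680-117670708, plus strand: ccagcccagggTTCAAAGccatgatgccg
The other 4 genes had both.
Rnf220, chr4:117272647-117272675, minus strand: tctgtgtcctgATCAAAGgccgcatgtaa
Kdm2b, chr5:122918412-122918440, plus strand: ggaggtgggagATCAAAGcacatcttgcc
Amotl2, chr9:102717696-102717724, minus strand: tccccctcgggATCAAAGcgaaccacaaa
Arl2, chr19:6141239-6141267, minus strand: acgcagcaggcTTCAAAGtcgccgcagcg
The core centre lay 12 bp from the summit at Sp5, 7 bp at Wnt6, 6 bp at Rnf220 and 1 bp at Arl2, and 50 bp at Tspan18. The summits of Sp5, Rnf220, Amotl2 and Arl2 fell in an annotated exon of the gene, and those of Wnt6, Tspan18, Sdr42e1 and Kdm2b did not.

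Nearly all genes with β-catenin at a TSS also carried H3K27ac at a TSS, whereas most acetylated genes had no listed β-catenin at one. The 2 need not be at the same TSS. Of single β-catenin summits at a TSS, 83.3% had an H3K27ac summit within 1 kb. In the consensus lists 1873 genes had both (8.54% of all protein-coding genes), 111 had β-catenin only (0.506%), 9580 had H3K27ac only (43.7%) and 10374 had neither. Of the 1984 genes with β-catenin, 94.4% also had H3K27ac (95% Wilson interval 93.3 to 95.3%), and this share was 95.2% and 95.3% in replicates 1 and 2. Of the 11453 acetylated genes, 16.4% had β-catenin, a share that was 25.8% and 34.8% in the replicates. The first share was thus alike in all lists, and the second moved with the length of the β-catenin list. Intervals of shares cover counting error only.

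The replicates held the same acetylated promoters far more often than the same β-catenin promoters. H3K27ac was at the TSS of 11697 genes in replicate 1 and 11890 in replicate 2, of which 11477 were shared. β-catenin was at 3164 and 4342, of which 2247 were shared. Of the 1873 consensus genes with both, 1860 had both in each replicate. Of the 111 with β-catenin only, 74 lacked H3K27ac at the TSS in both replicates, and in the consensus list 0 of the 111 had any part of an H3K27ac region less than 1 kb from a TSS.

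Within 50 kb of a TSS β-catenin reached many more genes. Both antibodies were listed for 7911 genes (36.1%), β-catenin only for 753 (3.43%), H3K27ac only for 8120 (37.0%) and neither for 5154. Of the 9580 genes with H3K27ac alone at the TSS, 4084 (42.6%) had a β-catenin summit within 50 kb, and of the 10374 genes with neither at the TSS, 1889 (18.2%) had both within 50 kb. A β-catenin summit away from the TSS was listed within 50 kb for 51.8% of genes with both at the TSS, 59.5% of those with β-catenin only and 25% of those with neither. A summit can count for several neighbouring genes, so these genes are not independent.

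The 2 antibodies differed in how much of their signal lay at gene starts. The share of summits less than 1 kb from a TSS of any annotated gene was 19.2% and 20.6% in the β-catenin replicates and 61.6% and 59.4% in the H3K27ac replicates, so the libraries of the 2 antibodies did not overlap. The mean difference was 40.6 percentage points (two-sided exact permutation test, n = 2 per antibody, p = 0.33, the smallest p this design allows). With every list limited to its 20154 most significant rows the shares were 19.2% and 17.1% for β-catenin and 81.8% and 82.1% for H3K27ac.

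Over all summits near gene starts, the antibodies differed in position, which was not computed for genes with both alone. H3K27ac summits avoided the start itself, with a main crest downstream and a lower one upstream, while β-catenin formed a single crest over it. The median position relative to the 5′ end of the gene was 45 and 46 bp downstream for β-catenin and 183 and 180 bp downstream for H3K27ac in replicates 1 and 2. Between 100 bp upstream and 50 bp downstream lay 21.3% and 21.6% of the β-catenin summits less than 1 kb from the start, against 3.65% and 3.69% of the H3K27ac summits.

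**Figure D1:**
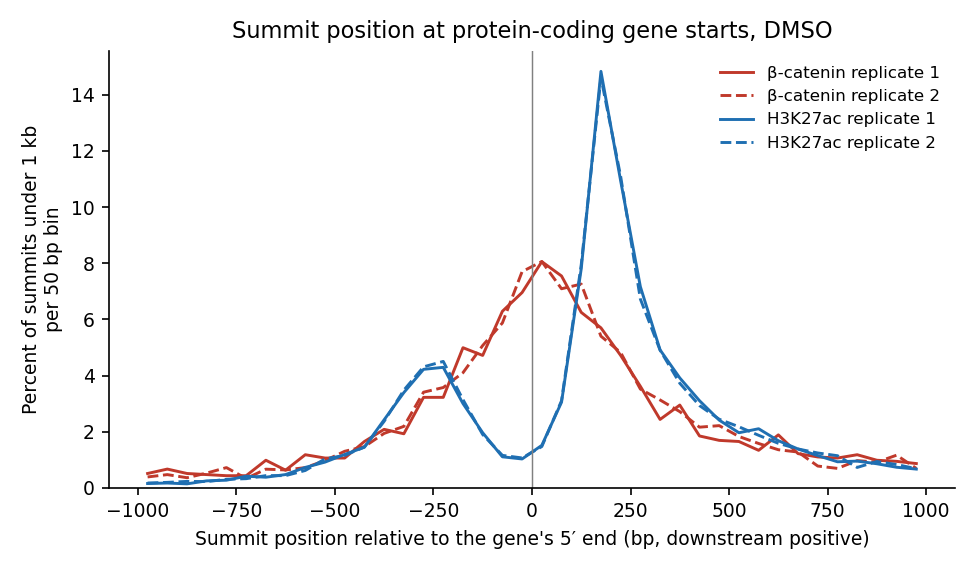
Position of summits less than 1 kb from the 5′ end of a protein-coding gene, in bp, against the percent of such summits per 50 bp bin, for each replicate of β-catenin (red) and H3K27ac (blue). β-catenin forms 1 crest over the start, and H3K27ac falls there and crests on either side, higher downstream (median 183 and 180 bp).

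The distance from a β-catenin summit to the nearest H3K27ac summit was bimodal. In the consensus lists 33.5% of β-catenin summits had an H3K27ac summit within 1 kb, only 9.47% had their nearest one between 1 and 10 kb away, and 25% had none within 100 kb. The median was 20.3 kb in the consensus lists and 11.5 and 9.81 kb in the replicates. Among β-catenin summits at a TSS 83.3% had H3K27ac within 1 kb, against 23.8% of distal ones. From the side of H3K27ac, 18.1% of TSS summits and 41.8% of distal summits had β-catenin within 1 kb, and these shares were 27.2% and 42.7% in replicate 1 and 36.0% and 46.4% in replicate 2.

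The near mode lay at an offset larger than the error of a summit's position. Distal β-catenin summits with H3K27ac within 1 kb lay a median of 236 and 232 bp from it in replicates 1 and 2, and those at a TSS 164 and 159 bp. A β-catenin summit lay a median of 39 bp (replicate 1) or 69 bp (replicate 2) from the nearest β-catenin summit of the other replicate, and an H3K27ac summit 32 or 37 bp, which measures how well a summit is placed. Only 3.51% of consensus β-catenin summits were within 50 bp of an H3K27ac summit. Of the β-catenin summits with H3K27ac within 1 kb, 50.3% at a TSS (48.3 to 52.4%) and 31.1% elsewhere (29.5 to 32.7%) had an H3K27ac summit on each side, and the flanking pair was a median of 510 and 492 bp apart. The replicates gave 48.3% and 48.3% at a TSS, and 28.5% and 28.7% elsewhere.

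**Figure D2:**
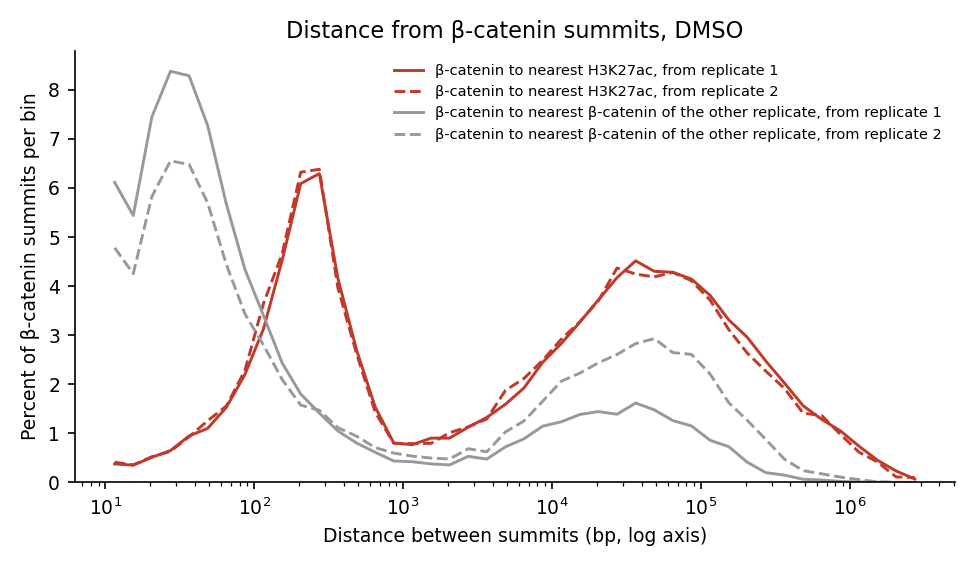
Distance in bp (log axis) from each β-catenin summit to the nearest H3K27ac summit of the same replicate number (red) and to the nearest β-catenin summit of the other replicate (grey), as percent of summits per bin, drawn from 10 bp upwards. The red curves have 1 mode between 237.1 and 316.2 bp and another beyond 10 kb with few summits at 1 to 10 kb, whereas the grey curves are highest under 50 bp.

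Most β-catenin summits lay outside H3K27ac peaks. Of the 16193 consensus summits 77.9% were outside, and distal summits outside H3K27ac made up 72.2% of the list (72.3% and 71.0% in the replicates). The median fold enrichment was 6.99 outside and 5.84 inside, 5.58 and 4.67 in replicate 1 and 5.25 and 4.51 in replicate 2, but TSS summits, which were weaker, made up more of those inside. Among distal summits alone the medians were 7.07 outside and 6.76 inside, 5.69 and 5.59 in replicate 1, and 5.33 and 5.42 in replicate 2, so that their order differed between the replicates. Relative to the genome-wide expected coverage, distal summits stood at 8.36 outside and 9.34 inside, the opposite order. Of distal summits outside H3K27ac 40.4% were intronic, 1.48% exonic and 58.1% outside protein-coding genes, and of those inside 39.7%, 2.42% and 57.8%.

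The TCF/LEF core was more frequent at summits outside H3K27ac peaks. A summit outside a peak can still lie near acetylation. Of 2634 consensus β-catenin summits at a TSS, 2193 had an H3K27ac summit within 1 kb but 1723 lay inside a peak. It was searched as ATCAAAG or TTCAAAG on both strands in 200 bp around each summit, and was found at 31.4% of β-catenin summits outside H3K27ac peaks (30.6 to 32.2%) and 18.7% of those inside (17.5 to 20%), a difference of 12.7 percentage points. The difference was 13.8 points in replicate 1 and 14.2 in replicate 2. At a TSS the shares were 29.3% outside and 15.6% inside, and at distal summits 31.5% and 21.6%. Base composition moved with these states, the median GC content of the windows being 44.0% outside and 56.0% inside, and its part in the difference was not tested. H3K27ac summits with no β-catenin within 1 kb held a core in 2.36% of cases at a TSS and 5.53% elsewhere. Of all protein-coding gene starts 4.27% held one within 100 bp to either side of the start.

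**Figure D3:**
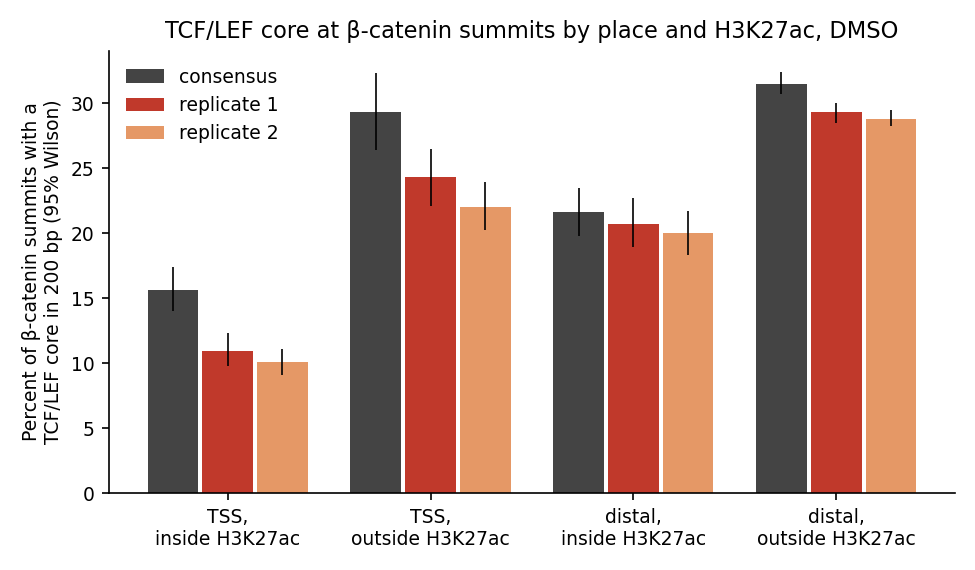
Percent of β-catenin summits with a TCF/LEF core in the surrounding 200 bp, by place (under 1 kb from a TSS, or distal) and by whether the summit lies inside an H3K27ac peak, for the consensus list and both replicates, with 95% Wilson intervals. In each list the share is lower inside H3K27ac than outside, from 15.6% against 29.3% at consensus TSS summits.

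Genes with both at a TSS stood above those with H3K27ac only in H3K27ac coverage, though hardly in fold enrichment. At genes with both, the median H3K27ac fold enrichment at the TSS was 11.5 (10.9 and 11.3 in the replicates), and at genes with H3K27ac only 11.2 (10.4 and 10.8). Relative to the genome-wide expected coverage the same summits stood at 43.7 and 24.6, in the consensus alone. Each is the strongest H3K27ac summit over the TSSs of a gene and need not be at the TSS with β-catenin. Genes with both had a mean of 2.42 H3K27ac summits at the TSS, against 1.86 with H3K27ac only, so they offered more summits to choose from. The expected coverage is taken from the same library, without input, so coverage around a summit can enter it. What set the 2 measures apart was not tested. TSS regions of H3K27ac with a β-catenin summit inside had a median width of 1139 bp and those without of 810 bp, and distal ones of 947 and 557.5 bp. The share of distal H3K27ac regions that held β-catenin went from 7.07% under 500 bp to 51.5% at 1 to 2 kb, and wider regions offer more room for a summit.

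Base composition at the outer 5′ end of the gene differed between the classes. A CpG ratio (observed over expected, in 500 bp to either side of the gene start) over 0.6 was found for 79.3% of genes with both, 74.7% with H3K27ac only, 39.6% with β-catenin only and 13.4% with neither. The genes with β-catenin only were thus between the acetylated and the unmarked ones, and were so in replicate 1 (38.2%) and replicate 2 (39.6%). The outer 5′ end is not always the TSS that carried the summit, so the ratio is that of the gene start and not of the marked TSS. Among other gene types, 3.89% of 5854 lincRNA genes had β-catenin and 10.2% had H3K27ac at the TSS. Of the lincRNA genes with β-catenin 58.8% also had H3K27ac, against 94.4% of protein-coding genes, and in the replicates these shares were 61.6% and 64.5% against 95.2% and 95.3%.

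The feedback and target genes of the WNT pathway and the TCF/LEF factors had the highest shares with consensus β-catenin at the TSS among the gene lists. In replicate 2 the hedgehog list, at 63.6%, stood above the feedback and target genes, at 58.8%. Of 17 feedback and target genes 8 had both at the TSS, 2 had β-catenin only, 6 had H3K27ac only and 1 had neither, so that 58.8% had β-catenin, against 9.04% of all genes (64.7% and 58.8% in the replicates, against 14.4% and 19.8%). Within 50 kb 15 had both, 1 had β-catenin only and 1 had H3K27ac only. The genes are textbook WNT targets, and the list was chosen with earlier results of these data known.

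Znrf3, a ubiquitin ligase that removes WNT receptors, had β-catenin at the TSS at 15.8- and 20.4-fold in replicates 1 and 2 and H3K27ac at 13.4- and 13.5-fold. Axin2, a scaffold of the destruction complex, had β-catenin at 10 and 12.3 and H3K27ac at 10.52 and 10.63, with 9 β-catenin and 14 H3K27ac consensus summits within 50 kb. Tnfrsf19, a receptor of the TNF family, had β-catenin at 13.6 and 12.7 and H3K27ac at 8.20 and 7.91. These 3 genes had both marks in all libraries.

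Sp5, a zinc finger repressor induced by WNT, had β-catenin at the TSS at 13.4- and 15.4-fold, and H3K27ac was listed there in neither replicate. Lgr5, the R-spondin receptor, had β-catenin at 8.13 and 5.53 and no listed H3K27ac in either replicate, nor a consensus H3K27ac summit within 50 kb. Lef1 stood the other way round, with H3K27ac at 6.42 and 7.59, β-catenin at the TSS listed in neither replicate, and 3 β-catenin consensus summits within 50 kb, the strongest at 20.2-fold. Apcdd1 and Wif1, both secreted or membrane-bound WNT inhibitors, had H3K27ac alone at the TSS and 6 β-catenin summits each within 50 kb. Rnf43, the paralogue of Znrf3, had neither at the TSS.

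The TCF/LEF factors and co-factors had acetylation at 12 of 12 TSSs and β-catenin at 7, and all 12 had both within 50 kb. The share with β-catenin at the TSS was 58.3%, against 9.04% of all genes and 16.4% of acetylated ones. Of all genes 36.1% had both within 50 kb. β-catenin was at 7 and 9 of the TSSs in the replicates. Tcf7 had β-catenin at 9.99- and 9.26-fold and H3K27ac at 9.91 and 9.36. Tcf7l2 had β-catenin at 6.24 and 5.74, and Pygo1, a co-factor that binds methylated histone H3, at 7.24 and 6.86. Of the components of the destruction complex, 10 of 10 TSSs were acetylated, 2 had β-catenin (5 and 4 in the replicates) and 4 had it within 50 kb. In the consensus the share at the TSS was 20%, near the 16.4% of acetylated genes. The share within 50 kb was 40%, near the 39.5% of all genes. Ctnnb1, the β-catenin gene, had H3K27ac at 12.7 and 12.8 and no β-catenin summit within 50 kb in the consensus (0 and 1 in the replicates). Csnk1a1, a kinase that primes β-catenin for destruction, had β-catenin at 11.5 and 9.09. The count within 50 kb was 8 and 10 of 10 in the replicates, so that the low counts of this list hold for the consensus alone.

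Of 19 WNT ligand genes 15 had neither at the TSS, 1 had both, 2 had β-catenin only and 1 had H3K27ac only. Over all genes the shares in this order were 47.3%, 8.54%, 0.506% and 43.7%. The ligand genes thus had β-catenin in 15.8% of cases (21.1% and 26.3% in the replicates), against 9.04% of all genes (14.4% and 19.8%). Wnt5a, expressed in the distal mesenchyme, had β-catenin at 5.52 and 6.03 and H3K27ac at 5.22 and 6.33. Its strongest consensus summits of β-catenin and H3K27ac were at different TSSs, at 28509728 and 28504931 on chromosome 14. Wnt6, an ectodermal ligand, had β-catenin at 9.62 and 10.9 and H3K27ac in neither replicate, and Wnt11 had β-catenin at 4.53 and 4.84 with H3K27ac listed in replicate 2 alone. Wnt5b had H3K27ac at 14.4 and 13.9, and β-catenin at 4.42 and 4.56 in the replicates that the consensus does not list. Of 21 receptors and R-spondins 5 had β-catenin (23.8%) and 17 had H3K27ac (81.0%) at the TSS, against 9.04% and 52.2% of all genes. Fzd10 had the strongest β-catenin at 9.09 and 8.32. Of 12 secreted antagonists, 2 had β-catenin at the TSS (Frzb and Dkk1) and 8 had it within 50 kb. These shares were 16.7%, near the 16.4% of acetylated genes, and 66.7%, against 39.5% of all genes.

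Genes of other signalling pathways of the limb bud had β-catenin at the TSS or in the surrounding landscape more often than genes at large. At the TSS β-catenin was listed for 8 of 21 BMP, 6 of 14 FGF, 4 of 11 hedgehog and 5 of 17 Notch pathway genes, or 38.1%, 42.9%, 36.4% and 29.4%, against 9.04% of all genes. Within 50 kb it was listed for 18, 12, 10 and 11 of them, or 85.7%, 85.7%, 90.9% and 64.7%, against 39.5% of all genes. Etv4, a transcription factor downstream of FGF, had the highest β-catenin fold enrichment at a TSS among the genes on these lists, at 13.2 and 13.4, with H3K27ac at 11.8 and 11.6. Its strongest consensus summits of β-catenin and H3K27ac were at different TSSs, at 101772724 and 101785091 on chromosome 11. Ptch1, the hedgehog receptor and target, had β-catenin at 7.52 and 4.52. Bmp5 had β-catenin at 5.41 and 4.27 and no H3K27ac at the TSS. Shh, which is expressed in a small posterior domain, had no consensus summit of either antibody within 50 kb (1 β-catenin summit in replicate 1), and its limb enhancer lies beyond that distance.

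Transcription factors of the limb mesenchyme were acetylated at 27 of 28 TSSs, of which 7 also had β-catenin (12 and 14 in the replicates), and 26 of 28 had both within 50 kb. The consensus shares at the TSS were 96.4% with H3K27ac and 25% with β-catenin, against 52.2% and 9.04% of all genes. Of acetylated genes 16.4% had β-catenin at the TSS, and 36.1% of all genes had both within 50 kb. Meis2, a proximal limb factor, had β-catenin at the TSS at 13.2 and 13.1 and H3K27ac at 4.35 and 3.81. Prrx1, a mesenchymal homeobox factor, had β-catenin at 5.59 and 7.01 and H3K27ac at 2.19 and 2.63. Prrx2, its paralogue, had H3K27ac at 10.1 and 11.8 and no β-catenin at the TSS. Of 39 Hox genes 13 had β-catenin at the TSS (13 and 19 in the replicates) and 35 had it within 50 kb. These consensus shares were 33.3% and 89.7%, against 9.04% and 39.5% of all genes. Hoxc5 was the strongest at 14.6 and 15.4, and neighbouring Hox genes share summits.

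Limb ectoderm and ridge genes had both at 0 of 18 TSSs (2 and 0 in the replicates), β-catenin only at 2 and H3K27ac only at 3, so that 11.1% had β-catenin, against 9.04% of all genes. The 2 were Sp8 and Sp9, zinc finger factors of the ridge, with β-catenin at 5.77 and 6.26 and at 6.86 and 4.35. Sp8 had H3K27ac in replicate 1 alone. Muscle precursor genes had H3K27ac at 4 of 10 TSSs and β-catenin at 0 (0 and 1 in the replicates), and β-catenin within 50 kb at 6. Over all genes these 3 shares were 52.2%, 9.04% and 39.5%. Chondrogenic genes had both at 4 of 16, a share of 25% against 8.54% of all genes. In the consensus this equals the share of the limb transcription factors, but not in the replicates. There β-catenin was at 31.2% and 31.2% of chondrogenic genes, and at 42.9% and 50% of the limb transcription factors. Of the chondrogenic genes Col9a1 stood at 12.5 and 15.1 and Sox6 at 9.73 and 11.4 for β-catenin. Sox9, which directs cartilage formation, had H3K27ac at the TSS at 4.92 and 6.11 and no β-catenin consensus summit within 50 kb (1 in each replicate). The paper proposes that β-catenin likely restricts Sox9 through regulatory elements in its genomic landscape. Summits beyond 50 kb were not counted here. In whole buds fewer cells with a mark and less of it per cell cannot be told apart.

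Housekeeping genes were mostly acetylated, and their shares with β-catenin at the TSS lay on both sides of the 9.04% of all genes. H3K27ac was at the TSS of 80 of 83 ribosomal protein genes, 77 of 77 mitochondrial ribosomal protein genes, 84 of 94 respiratory chain genes and 31 of 31 DNA replication genes. β-catenin was there for 10, 6, 7 and 0 of them, or 12%, 7.79%, 7.45% and 0%, against 16.4% of acetylated genes of any kind. In replicate 1 the shares were 19.3%, 13.0%, 12.8% and 22.6% against 25.8%, and in replicate 2 they were 27.7%, 26.0%, 23.4% and 22.6% against 34.8%. The 0 of 31 DNA replication genes rests on the consensus filter, since 7 of 31 had β-catenin in either replicate. Splicing factor genes had H3K27ac at 44 and β-catenin at 11 of 45 TSSs, a share of 24.4% (35.6% and 48.9% in the replicates) that was above that of acetylated genes in each list. Proteasome genes had H3K27ac at 35 and β-catenin at 4 of 40, and replication-dependent histone genes had H3K27ac at 59 and β-catenin at 4 of 67 (13 and 29 in the replicates). Mrps5, of the mitochondrial ribosome, had H3K27ac at 30.8 and 30.7 and β-catenin at 3.23 in replicate 1 alone, and its H3K27ac summit is that of Zfp661 too.

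Sensory receptor, keratin and hemoglobin genes mostly had neither. At the TSS 1132 of 1135 olfactory receptor genes, 327 of 329 vomeronasal receptor genes, all but 5 of 106 keratin genes and 8 of 8 hemoglobin genes had neither, against 47.3% of all genes. Keratin genes had β-catenin within 50 kb in 28.3% of cases and H3K27ac in 18.9%, an order opposite to that of all genes (39.5% and 73.1%). The keratin genes lie in clusters and share summits.

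**Figure D4:**
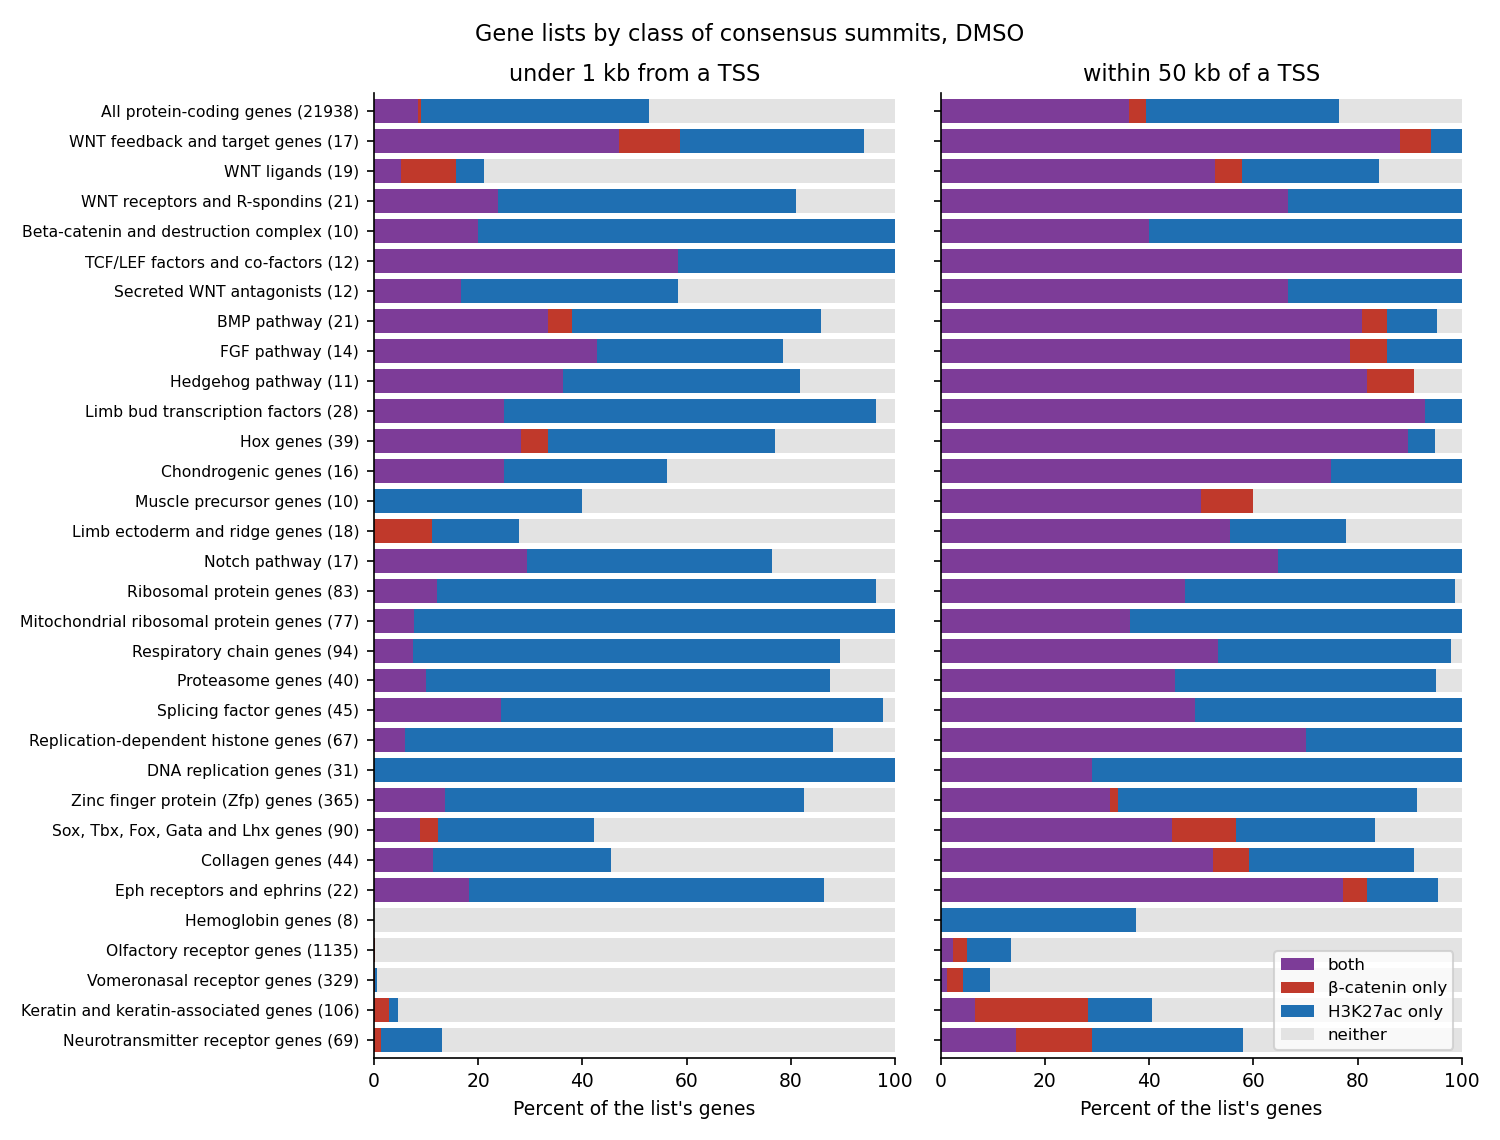
Percent of the genes of each list (number of members in brackets) with both antibodies, β-catenin only, H3K27ac only or neither, by consensus summits under 1 kb from a TSS (left) and within 50 kb (right), with all protein-coding genes at the top. WNT feedback genes and TCF/LEF factors have the widest β-catenin segments at the TSS (58.8% and 58.3%), and receptor families of sensory neurons have almost none.

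The genes of each class were ranked by their highest fold enrichment at any annotated TSS. Such a TSS can lie inside the gene. The β-catenin summits of Ascc3, Rnf220, Kdm2b and Disp1 were all more than 1 kb from either end of the gene. That of Ascc3 was at 50763655 on chromosome 10, in a gene spanning 50592669 to 50851485. Each value is that of the strongest summit of an antibody over the TSSs of the gene. The H3K27ac value of a gene with both therefore need not come from the TSS with β-catenin, and this was not tested. Among genes with both, Ascc3, a helicase, had β-catenin at 28.2 and 27.8 and H3K27ac at 12.4 and 12.1. Rnf220, a ubiquitin ligase, had β-catenin at 20.4 and 24.96, Kdm2b, a histone demethylase that binds CpG islands, at 19.9 and 24.7, Amotl2, an angiomotin of cell junctions, at 22.4 and 21.9, and Disp1, which releases hedgehog ligands, at 20.4 and 22.1. The summit of Arl2 was that of Batf2 too.

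Among genes with β-catenin only, Sdr42e1, a dehydrogenase of the short-chain family, led with 18.01 and 16.2, and H3K27ac was listed at 3.63 in replicate 2. Sp5 and Wnt6 stood among the 10 strongest, as did Adam7, Pdlim3 and Hal, with β-catenin at 11.3 and 11.8, 11.4 and 7.97, and 9.32 and 8.92 and no H3K27ac in either replicate. Kcnma1, a potassium channel, is a borderline case: its summit lay just under 1 kb from a TSS and was listed at 9.74 in replicate 1 alone, and H3K27ac was listed at 2.83 in replicate 2. Tspan18, a tetraspanin, had β-catenin at 11.3 and 8.87, and H3K27ac at 3.52 and 2.77 in the replicates that the consensus does not list. Among genes with H3K27ac only, Zfp866 and Gm20422, which share the summit, stood at 30.4 and 33.4, and Fancl, a ligase of DNA crosslink repair, at 31.7 and 29.7 with β-catenin at 3.78 in replicate 1 alone.

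Genes with many acetylated summits around them had more β-catenin summits too. The mean number of β-catenin consensus summits within 50 kb was 0.185 for genes with no H3K27ac summit there, 0.774 with 3 to 5 and 2.4 with 11 or more, and in replicate 1 it was 0.193, 1.05 and 3.09. Across all genes Spearman's rho of the 2 numbers was 0.414 in the consensus and 0.516 and 0.585 in the replicates. Genes are not independent, and gene length, number of TSSs and gene density enter both numbers. Of distal β-catenin summits 70.6% had as nearest protein-coding gene one with H3K27ac at its TSS, as did 69.6% of those outside H3K27ac peaks, while such genes were nearest to 53.3% of the genome.

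Single genes ranged from many summits of both antibodies to many of 1 alone. Tenm4, a transmembrane teneurin, and Auts2, a regulator of transcription, had 21 β-catenin summits each, with 19 and 14 of H3K27ac, and Mecom, a zinc finger factor, had 16 with 27. Hdac9, a histone deacetylase, had 12 with only 3 of H3K27ac. Kcnip4 had 9, with 8 and 11 in the replicates, and Skap1 had 8, with 9 and 11, and neither had an H3K27ac summit within 50 kb in any list. Conversely Hfe, the iron regulator within the histone gene cluster, had 28 H3K27ac summits and no β-catenin in the consensus, with 2 and 4 β-catenin summits in the replicates. The replication-dependent histone genes had a mean of 21.7 H3K27ac and 1.01 β-catenin summits, against 3.61 and 0.743 for all genes.

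The highest β-catenin number of all, 26, belonged to 9 predicted genes such as Gm10717 at the start of the sequenced part of chromosome 9 (3000179 to 3038021), which share the same summits. There the median distance from a β-catenin to an H3K27ac summit was 20 bp, under the offset seen elsewhere, and the coverage expected by macs2 reached 6.49 times the genome-wide level. Gm10800, with β-catenin at 25.3 and 25.7 and H3K27ac at 23.0 and 23.8, lies at another locus of this kind on chromosome 2. Leaving out every row within 50 kb of a β-catenin row over 5 times the expected level, chosen after seeing the data, changed the genes with both at the TSS from 1873 to 1848 and those with β-catenin only from 111 to 110.

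**Figure D5:**
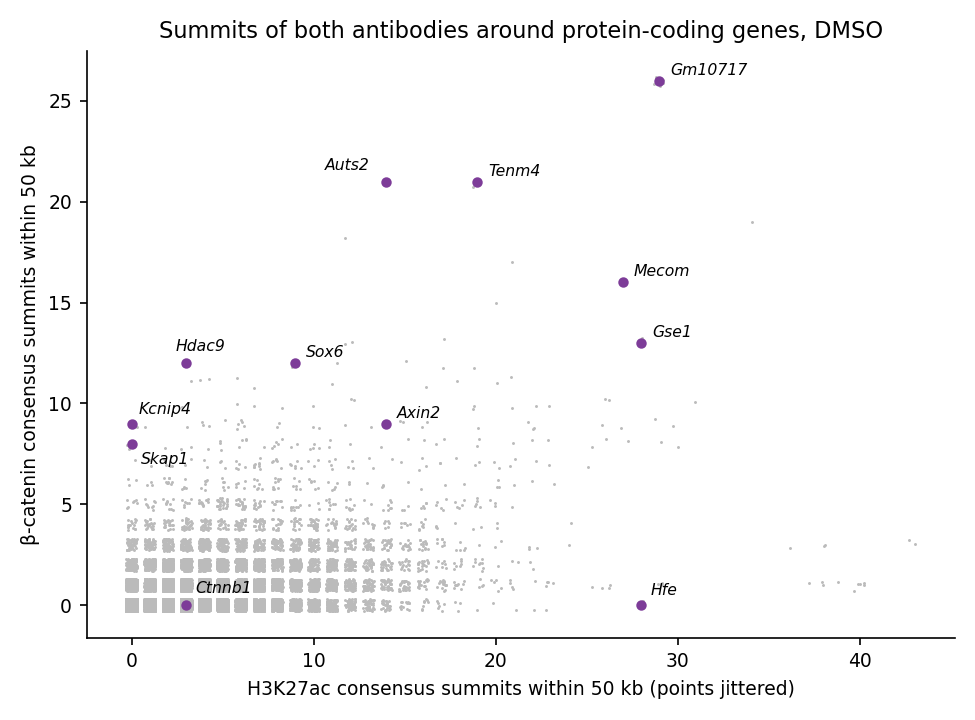
Number of β-catenin against H3K27ac consensus summits within 50 kb of each protein-coding gene (grey, jittered), with named genes in purple. Tenm4 and Auts2 have 21 β-catenin summits each, Kcnip4 and Skap1 have β-catenin without H3K27ac, and Hfe has 28 H3K27ac summits and no β-catenin.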

How the data were processed

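β-catenin and H3K27ac ChIP-seq of DMSO-treated E10.5 forelimb buds was used, 2 libraries per antibody. The authors trimmed with cutadapt, mapped with Bowtie2 2.4.5 and called peaks with macs2 2.2.7.1 without input, and built consensus lists from both replicates after removing duplicates and subsampling. The deposited values used are the fold enrichment, a ratio over the expected coverage, and −log10 p and q. C59 lists and input were not used here. The blacklist was not applied.

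Summits on chromosomes 1 to 19, X and Y were set against GENCODE M21 on GRCm38; 0 rows passed a chromosome end. Shares have 95% Wilson intervals, and antibodies were compared by an exact permutation test over libraries. Only 2 replicates per antibody limit the precision. The p-values are the smallest this design allows, so they do not measure the spread between libraries. The 31 gene lists, the members and the comparisons were chosen with earlier results of these data known. Named genes were the 10 of highest fold enrichment in each TSS class, the 10 with most β-catenin summits within 50 kb and the 10 with most H3K27ac summits but no β-catenin there, up to 4 per list and class, and members of lists under 25 genes; Kcnip4, Skap1, Hdac9, Auts2 and Mecom, and the choice of printed sequences among these genes, were added after their values were seen. Alternatives were other limits, TSS sets, q-values, list lengths and single replicates. Functions were tested on simulated data. Calculations used Python, numpy, pandas, scipy and pysam.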

Additional observations from a re-analysis of the deposited data

Results flagged for a closer look

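Summits on the mitochondrial chromosome or on unplaced contigs entered no comparison. The deposited consensus lists held 45 such summits for β-catenin and 38 for H3K27ac, with fold enrichments of up to 37.5 and 36.2, and they were singled out as signal in data that no comparison used. No group had enough samples for a test of single outlying libraries.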

How the results depend on the processing

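Counts of genes moved with the lists used and with how summits were assigned to genes. With 1 replicate of each antibody in place of the consensus, genes with both at the TSS numbered 3012 to 4140, with β-catenin only 152 to 202 and with H3K27ac only 7750 to 8685, and within 50 kb 10118 to 12015, 753 to 881 and 4534 to 6265. With the H3K27ac list cut to the length of the β-catenin list, β-catenin-only genes rose to 239 at the TSS and 1399 within 50 kb, as fewer acetylated genes remain. A wider TSS limit gave 182 with β-catenin only, and counting each summit for its nearest gene gave 3881 with both within 50 kb. The other alternatives stayed within 1.5 times the counts. The median distance from β-catenin to H3K27ac was 9811 to 11490 bp in single replicates, 23220 bp at a −log10 q of at least 5, 84810 bp with the cut H3K27ac list and 21570 bp without the loci of high expected coverage, and that from H3K27ac to β-catenin 7363 to 15790 bp in single replicates and 41740 bp with the cut list. The cause of these shifts was not tested. The difference in core share kept its direction: 13.8 to 14.2 points in single replicates, 9.09 with windows of 100 bp, 14.6 with 400 bp, 11.8 at the stricter q, 13.1 with H3K27ac peaks extended by 1 kb, 9.95 for distal summits and 12.4 without the loci of high expected coverage. The difference in TSS share was 38.8 to 42.4 points in single pairs, 49.8 in the consensus and 35.5 to 63.8 in the other alternatives, and with the replicate block it was 40.6 (exact sign-flip p = 0.5, the smallest possible). The replicate numbers are not said to mark shared buds. Over 2136 genes with summits of both antibodies in each replicate, the log2 ratios of replicate 1 to 2 correlated across genes at 0.0054. This value cannot tell whether buds were shared, since the ratios can be unrelated in either case. The β-catenin libraries were the shallower ones, and the part of depth in these counts was not tested.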
